A study of Mus musculus with 9 samples.

Results

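MERVL-int and MT2_Mm are the internal part and the long terminal repeat (LTR) of the mouse endogenous retrovirus MERVL. All rows of the repeat table that carry either name were taken, with no use of their values. There were 169 MERVL-int and 145 MT2_Mm entries, together 314 of 38385 repeat entries. Their levels were given in 9 poly(A) RNA-seq libraries in FPKM, read fragments scaled to the length of the entry and the depth of the library, each library being the only one of its condition.

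MERVL entered the mouse lineage as a retrovirus with an LTR at each end of its coding part, and MT2_Mm is the LTR class that flanks intact copies. The LTR serves as promoter and start of transcription. MERVL is known for its transcription in the embryo at the 2-cell stage, and for a small and changing fraction of embryonic stem cell (ESC) cultures, the 2-cell-like cells, that transcribe it together with genes such as the Zscan4 cluster. In bulk RNA, more cells in that state and more RNA in each such cell cannot be told apart. DNMT1 copies CpG methylation onto newly made DNA strands, and IAPEz-int, the internal part of another retrovirus class, is known to be held down by DNA methylation in mouse cells.

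The libraries came from J1 mouse ESCs of 3 kinds. WT carried intact Dnmt1, 1KO lacked Dnmt1 (Dnmt1-/-), and 1KO+1CI was the 1KO line with a transgene for catalytically inactive DNMT1 (C1229S) under the CAG promoter with an IRES-zeocin cassette. The transgene was thus not under the control of the Dnmt1 locus, and the line had been through selection for clones. The paper established 2 independent clones of this kind. Its 3 libraries share the label CI6, whose meaning is not stated. Effects of the clone and of the transgene cannot be told apart here. Each kind was sampled undifferentiated on feeder fibroblasts in LIF and serum (day 0), and after 2 and 4 days of differentiation without LIF. Feeders were removed by plating before differentiation, and whether this was also done for the day 0 RNA was not given in the sources used here.

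Dnmt1 was at 74.0, 80.4 and 48.5 FPKM in WT at days 0, 2 and 4, at 13.7, 17.4 and 12.3 in 1KO, and at 315, 129 and 158 in 1KO+1CI. The implied depth was 21800000 to 30100000 reads per library. Of the 8 ESC markers listed, 6 were lower at day 4 than at day 2 by the linear model described further on (limma, adjusted p under 0.05), against 11.7% of all genes. The others were Pou5f1 and Nanog. Pou5f1, a core pluripotency factor, ran from 632 to 1010 FPKM over the libraries. Nanog had 89.5, 58.8 and 40.9 FPKM at day 2 in WT, 1KO and 1KO+1CI, and 56.8, 171 and 157 at day 4. It was thus lower at day 4 in WT only. Feeder fibroblast markers, 9 of 10 of them listed, summed to 95.6, 187 and 217 FPKM at day 0 in WT, 1KO and 1KO+1CI, and to between 13.2 and 30.2 FPKM in the later libraries.

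The values were used to read what an entry may hold. Within an entry the FPKM of the libraries stood at whole multiples of a shared step, as whole reads over a fixed length would, and such a step was found for 167 MERVL-int and all 145 MT2_Mm entries. The length that a step implies was close to a whole number of bases within 0.1 base for 42.6% of 777 entries with numbers in the highest 10% of their family, but for 21.8% of 3621 entries in the lowest 10%, where 20% would be met by any length. In those low entries the lengths lay on multiples of 1/21 base. Their concentration, where 0 is none and 1 is complete, was 0.462 at a divisor of 21, 0.186 at 20 and 0.007 at 1. In the next range of numbers it was 0.428 at a divisor of 20. The scale that turns steps into lengths was first set so that high entries lay on multiples with small divisors. It was then refined to make the peaks at 21 in the low entries and at 20 in the next range highest. These shares and peaks were thus partly set by the fit and are no separate support for a divisor. An average over up to 21 stretches gives such fractions, and 21 is the number of different mouse chromosomes. An entry is read here, without separate support, as a pool of up to 21 genomic copies that carry the same number. Entries of high number would hold fewer, and an entry is not taken as a single locus. The sources used here do not state this pooling, and no positions or sequences of copies were analysed here.

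**Figure D1:**
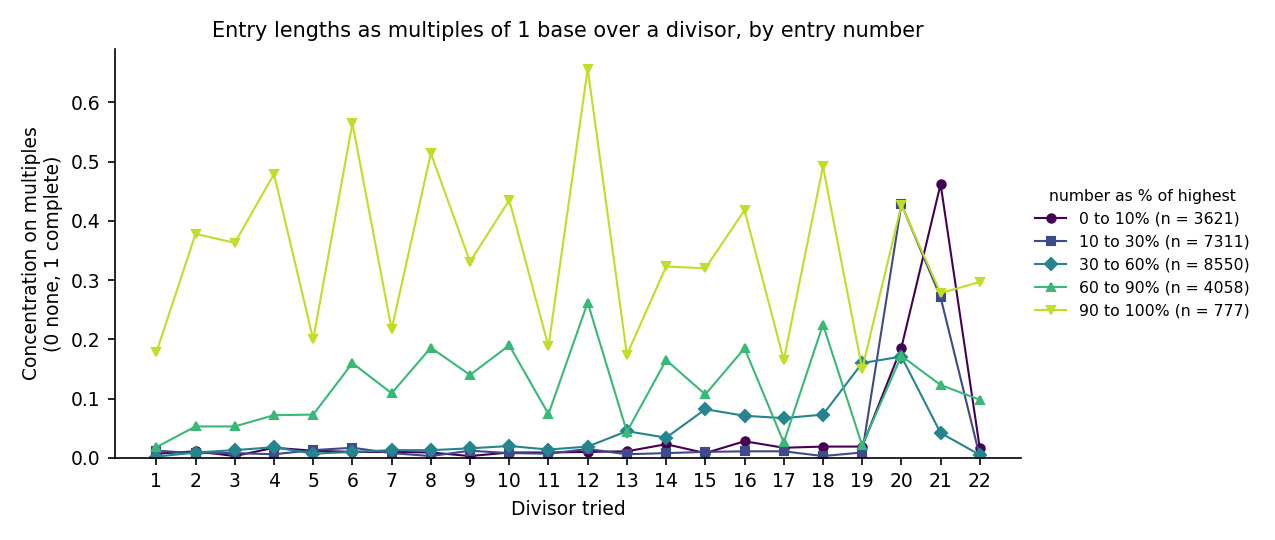
Concentration of the implied entry lengths on multiples of 1 base over a divisor (y axis, no unit) for each divisor tried (x axis), with entries of all repeat families grouped by their number as a percent of the highest number in the family. The lowest 10% of numbers peaks at 21 (0.462) and the next range at 20 (0.428). The scale of the lengths was refined on these peaks.

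The implied mean lengths for MERVL-int had a median of 1702 bases, quartiles of 1259 and 2129 and a maximum of 5357. As averages over a pool, they do not tell partial copies from a mix of full and short ones. For MT2_Mm they were much alike, with a median of 452 bases, quartiles of 437 and 469 and a maximum of 497. Because reads map to many near-identical MERVL copies and the treatment of such reads is not given in the sources used here, levels of single entries are uncertain and the family sums carry the description.

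MERVL-int was the more abundant of the pair per length, and its level was lowest at day 2 in every line. At day 0 the mean over entries was 1.12, 1.99 and 2.64 FPKM for WT, 1KO and 1KO+1CI. At day 2 it was 1.08, 0.760 and 0.872 FPKM in the same order. At day 4 it was 1.78, 3.23 and 2.81 FPKM. Thus WT was the lowest line at days 0 and 4 and the highest at day 2.

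The summed reads of the 167 entries with recovered reads followed the same order. In RPM, reads scaled to the reads of the whole library, they came to 308, 552 and 742 RPM at day 0 for WT, 1KO and 1KO+1CI. At day 2 they came to 296, 202 and 236 and at day 4 to 504, 917 and 800 RPM. The lowest of these sums rested on 4566 reads and the highest on 22374. If a step is 1 read, counting error was thus small, but the intervals given below cover counting error only, and the spread between cultures was not measured.

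MT2_Mm had lower levels and the same order of WT against both other lines at each day, but in WT it was not lower at day 2 than at day 0. Its mean was 0.867, 1.45 and 1.70 FPKM at day 0 in WT, 1KO and 1KO+1CI. It was 0.891, 0.612 and 0.719 FPKM at day 2, and 1.20, 1.98 and 1.70 FPKM at day 4. Over the libraries the MT2_Mm sums rested on 898 to 3143 reads. The mean FPKM of MT2_Mm over that of MERVL-int was 0.825, 0.806 and 0.824 at day 2, when the levels were low, and 0.604 to 0.673 at day 4. At day 0 this ratio was 0.770, 0.727 and 0.642 for WT, 1KO and 1KO+1CI.

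**Figure D2:**
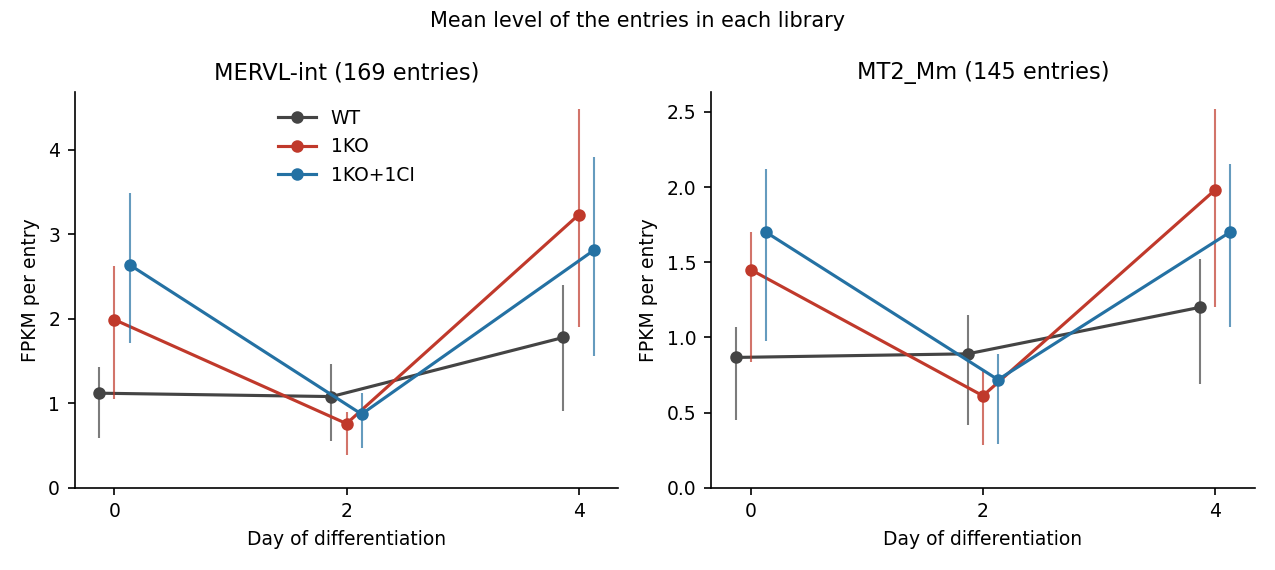
Mean FPKM over entries (points, y axis) by day of differentiation (x axis) for MERVL-int and MT2_Mm in WT, 1KO and 1KO+1CI, with vertical bars for the quartiles of the entries, which are not replicate error since each point is 1 library. The 1KO and 1KO+1CI lines lie above WT at days 0 and 4 and below it at day 2 in both families.

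The comparison of 1KO with WT sets the RNA of MERVL in a line without Dnmt1 against that in J1 cells. The loss of DNMT1 and other differences between these lines cannot be told apart here. At day 0 MERVL-int was 1.77-fold higher in 1KO by mean FPKM, and 1.79-fold by summed reads (95% exact interval 1.74 to 1.84). MT2_Mm was 1.67-fold higher (interval of the summed reads 1.56 to 1.79). The FPKM was higher in 163 of 169 MERVL-int and 125 of 145 MT2_Mm entries, against 42.1% of all repeat entries. By at least 2-fold on the log2(FPKM + 1) scale, 5 MERVL-int and 5 MT2_Mm entries were higher, against 4.9% of all entries, and 0 were lower in either family, against 6.82%. This scale understates the change of low entries.

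At day 2 the direction was the opposite. MERVL-int was at 0.704 of WT by mean FPKM and at 0.681 by summed reads (interval 0.656 to 0.706). MT2_Mm was at 0.688 of WT (interval of the summed reads 0.630 to 0.744). The FPKM was lower in 1KO in 141 of 169 MERVL-int and 97 of 145 MT2_Mm entries, against 53% of all entries. MERVL-int number 74 was the 1 entry lower by at least 2-fold, against 5.09% of all entries.

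At day 4 MERVL-int was 1.81-fold higher in 1KO than in WT (interval of the summed reads 1.78 to 1.86), and higher in 168 of 169 entries, against 49.7% of all entries. MT2_Mm was 1.64-fold higher (interval of the summed reads 1.55 to 1.75), and higher in 130 of 145 entries. By at least 2-fold, 5 MERVL-int and 10 MT2_Mm entries were higher, against 6.77% of all entries. The share of members past 2-fold was thus below or near that of all entries at each day on this scale. These counts rested on the pseudocount. On the log2(FPKM + 0.1) scale, 52 MERVL-int and 47 MT2_Mm entries were higher by at least 2-fold at day 0, against 11.4% of all entries, 26 and 48 were lower at day 2, against 13.9%, and 50 and 49 were higher at day 4, against 17.2%.

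Counting intervals were also formed for each entry. Those of the 1KO to WT ratio lay above 1 for 118 of 167 MERVL-int entries at day 0, against 5.74% of the 36517 repeat entries with recovered reads, and for 147 at day 4, against 6.05%. At day 2 they lay below 1 for 59, against 9.49%. For MT2_Mm the counts were 37, 35 and 20 of 145 for the same sides and days. Members with many pooled reads have narrower intervals than a typical entry, so these shares depend on read number as well as on the size of the difference.

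The comparison of 1KO+1CI with 1KO asks what inactive DNMT1 protein did in cells without the enzyme's activity. MERVL-int was 1.33-fold higher in 1KO+1CI at day 0 (interval of the summed reads 1.32 to 1.37), in 155 of 169 entries, against 57.8% of all entries. At day 2 it was 1.15-fold higher (interval of the summed reads 1.13 to 1.22), in 115 entries, against 48.2%. At day 4 its level was 0.871 of 1KO (interval 0.854 to 0.888), and lower in 128 entries, against 49.6%. These differences were smaller than those between 1KO and WT at the same days.

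MT2_Mm followed with ratios of 1KO+1CI to 1KO of 1.17, 1.17 and 0.859 at days 0, 2 and 4. The intervals of its summed reads were 1.12 to 1.24, 1.07 to 1.28 and 0.812 to 0.904. It was higher in 94 and 78 of 145 entries at days 0 and 2, against 57.8% and 48.2% of all entries, so that the count at day 2 was near that share. It was lower in 94 at day 4, against 49.6%. By at least 2-fold, 0 entries of either family differed between these lines at days 0 and 2, against 4.57% of all entries higher and 3.69% lower at day 0 and 3.8% and 3.77% at day 2. At day 4 0 entries were higher, against 3.39%, while 2 MT2_Mm entries were lower, against 4.2%. Against WT, the 1KO+1CI library was 2.35-fold higher in MERVL-int at day 0, at 0.807 at day 2 and 1.58-fold higher at day 4.

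The median of all repeat entries also moved between libraries. From WT to 1KO at day 0 it differed by -0.16 on the log2 scale, and from 1KO to 1KO+1CI by 0.15. Taken relative to it, the log2 ratio of MERVL-int was 0.98 in place of 0.82 for 1KO over WT, and 0.26 in place of 0.41 for 1KO+1CI over 1KO, both at day 0. For MT2_Mm the latter was 0.08 in place of 0.23.

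**Figure D3:**
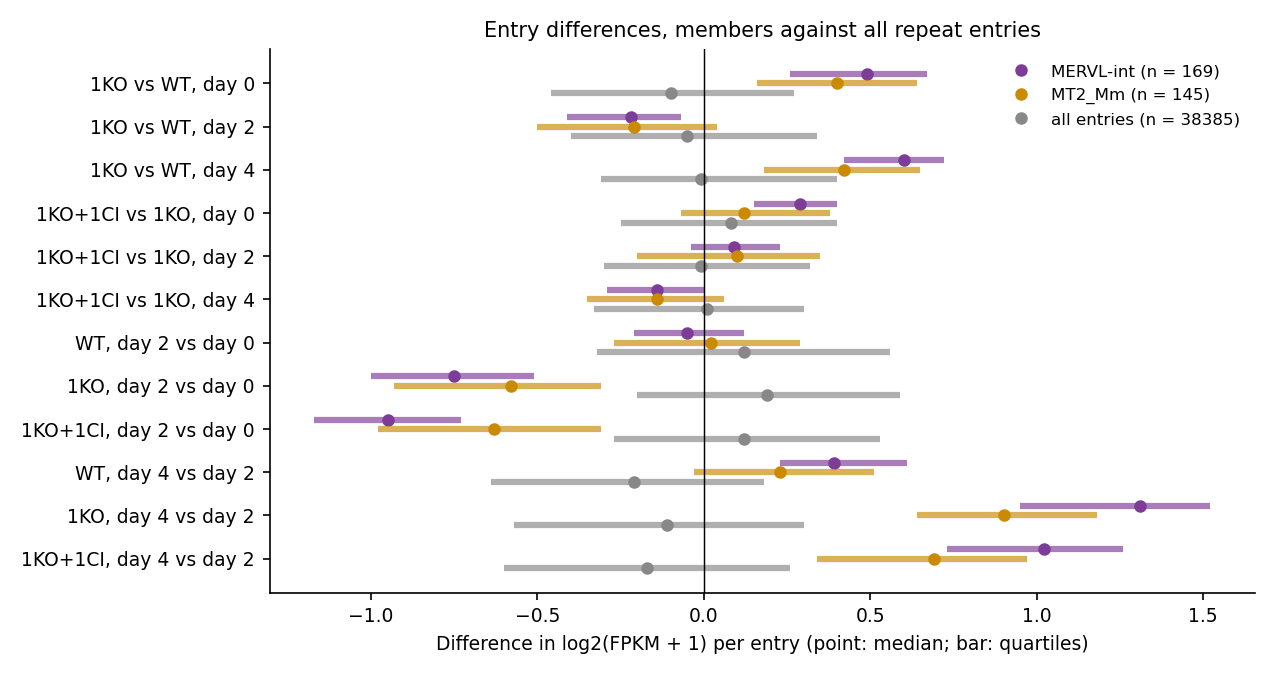
Difference in log2(FPKM + 1) per entry (x axis) in 12 comparisons (y axis), with the median as a point and the quartiles as a bar, for MERVL-int, MT2_Mm and all 38385 repeat entries. The medians of the members at 1KO vs WT are 0.49 and 0.40 at day 0, -0.22 and -0.21 at day 2, and 0.60 and 0.42 at day 4.

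The time courses of 1KO and 1KO+1CI held larger ratios than the comparisons of lines. In 1KO, MERVL-int at day 2 was at 0.382 of day 0 (interval of the summed reads 0.353 to 0.377 around 0.365) and lower in 167 of 169 entries, against 37.4% of all entries. It was then 4.25-fold higher at day 4 than at day 2, again in 167 of 169 entries, against 39.7%. In 1KO+1CI it was at 0.330 of day 0 at day 2, and 3.23-fold higher at day 4 than at day 2. In WT it was at 0.960 of day 0 at day 2, with an interval of the summed reads of 0.931 to 0.994, and 1.65-fold higher at day 4 than at day 2.

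Entries lay lowest at day 2 in 166 of 169 cases in 1KO and in 166 in 1KO+1CI, against 23.2% and 24.3% of all entries, and in 89 cases in WT, against 25.5%. By at least 2-fold, 42 MERVL-int entries in 1KO and 72 in 1KO+1CI were lower at day 2 than at day 0, against 3.61% and 4.85% of all entries. From day 2 to day 4, 119 and 89 entries were higher by that much, against 6.41% and 5.8%, and 2 in WT, against 3.62%. MT2_Mm was at 0.424 and 0.423 of day 0 at day 2 in 1KO and 1KO+1CI, and 3.23-fold and 2.36-fold higher at day 4 than at day 2. Its entries lay lowest at day 2 in 134 of 145 cases in 1KO, in 127 in 1KO+1CI and in 63 in WT.

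The median of all repeat entries moved the other way between the days. It was higher at day 2 than at day 0 by 0.22, 0.37 and 0.23 on the log2 scale in WT, 1KO and 1KO+1CI by scaling factors of the repeat table, and the difference from day 2 to day 4 was -0.35, -0.28 and -0.33. Relative to this shift the MERVL-int difference from day 0 to day 2 on the log2 scale was -0.27, -1.76 and -1.83 for WT, 1KO and 1KO+1CI. For MT2_Mm in WT the log2 ratio of 0.04 turned to -0.18.

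A linear model with line and day as additive terms (limma on log2(FPKM + 1) over the 9 libraries, 4 residual degrees of freedom, Benjamini-Hochberg adjustment over all entries or all 1042 families) was used as the test. Its error holds the change of line differences over days together with the spread between cultures, which cannot be told apart here. The line effect of 1KO over WT was 0.28 ± 0.20 (SE) for the MERVL-int family mean (adjusted p = 0.678) and 0.20 ± 0.16 for MT2_Mm (adjusted p = 0.732). That of 1KO+1CI over 1KO was 0.08 ± 0.20 (adjusted p = 0.994) and 0.03 ± 0.16 (adjusted p = 0.998). With limma, 0 entries of either family passed for 1KO over WT, against 1.12% of all entries higher and 0.0599% lower, and 0 for 1KO+1CI over 1KO, against 0.00261% in each direction. At an unadjusted p under 0.05, 1 MERVL-int and 5 MT2_Mm entries were higher in 1KO than in WT, against 4.77% of all entries, and for 1KO+1CI over 1KO 1 MT2_Mm entry was higher and 1 lower, against 2.57% and 1.94%.

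By the same model MERVL-int rose from day 2 to day 4 by 0.90 ± 0.20 (SE) (adjusted p = 0.0445), as did 1.82% of all families, while the MT2_Mm effect of 0.59 ± 0.16 did not pass (adjusted p = 0.0672). The call for MERVL-int was lost on leaving out any 1 library other than WT at day 0, with effects of 0.77 to 1.16 and adjusted p values up to 0.148. At the level of entries, 7 MERVL-int and 8 MT2_Mm entries rose from day 2 to day 4, against 0.735% of all entries. At most 1 and 4 of them passed when a library was left out. From day 0 to day 2 the effects were -0.59 ± 0.20 (adjusted p = 0.139) and -0.41 ± 0.16 (adjusted p = 0.178), and 0 entries of either family passed, against 0.0964% of all entries lower and 0.0782% higher, with 44 and 30 lower at an unadjusted p under 0.05, against 4.14% of all entries.

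Entries of MERVL-int moved much alike. Pearson's r of an entry's log2(FPKM + 1) with that of the family mean over the 9 libraries had a median of 0.96 and passed 0.9 in 145 of 169 entries. In MT2_Mm the median was 0.82, and 35 of 145 passed 0.9. An entry is itself part of the mean, is read as a pool of copies and shares the libraries' depth with it, so these values are a description. MT2_Mm entries also hold far fewer reads, since they are shorter.

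The level of an entry depended on its number. MERVL-int entries numbered 1 to 50 had a mean of 2.35 FPKM over the libraries, those from 51 to 100 of 2.18, those from 101 to 150 of 1.31, and the 24 above that of 0.855. The ratio of 1KO to WT at day 0 was 1.86, 1.80 and 1.90 in the first 3 of these ranges and 1.13 in the last. Entry 170 weighs heavily there, and without it the last range had a mean of 0.491 FPKM and ratios of 1.31, 0.782 and 1.88 at days 0, 2 and 4. In MT2_Mm the mean was 1.37, 1.44, 1.01 and 0.401 FPKM over the same ranges.

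**Figure D4:**
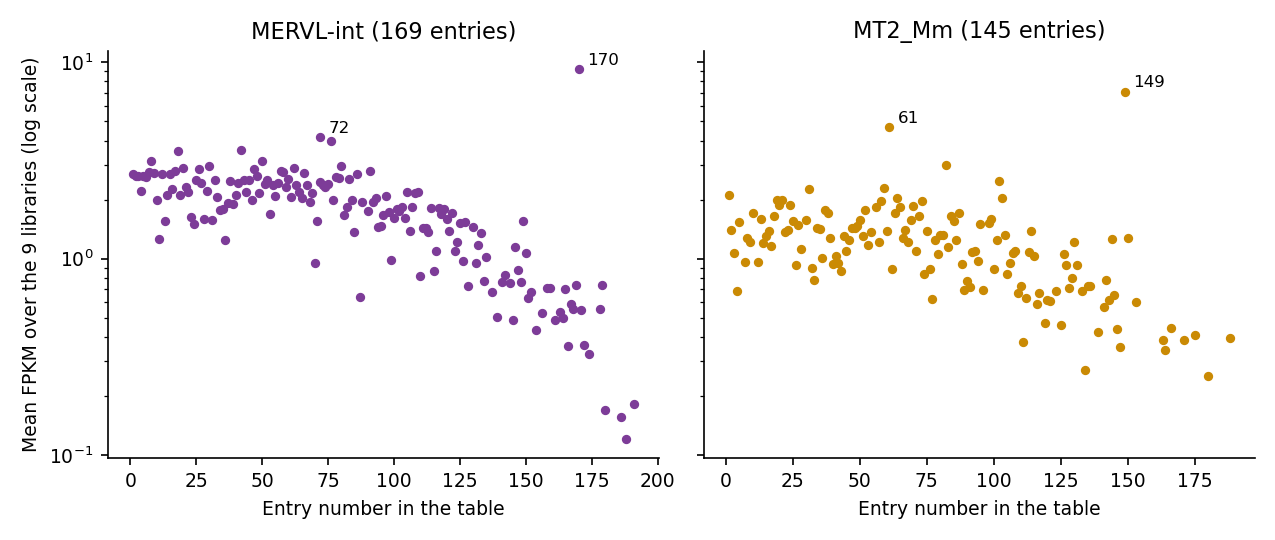
Mean FPKM over the 9 libraries (y axis, log scale) of each MERVL-int and MT2_Mm entry by its number in the table (x axis), each point being 1 entry. Levels decline at high numbers, and MERVL-int entry 170 (9.23 FPKM) and MT2_Mm entry 149 (7.10 FPKM) stand above the rest.

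The highest entry of MERVL-int was an exception to the family pattern. Number 170, of an implied 219 bases, had 11.6, 11.5 and 9.63 FPKM in WT, 1KO and 1KO+1CI at day 0. It had 7.68, 8.88 and 8.95 FPKM at day 2, and 9.34, 8.80 and 6.69 at day 4. Its r with the family was -0.16, and it rested on 32 to 76 reads per library. Its ratio of 1KO to WT at day 4 was 0.942, the lowest by rule among MERVL-int entries at that day, with an interval of 0.614 to 1.45 that holds 1. Number 149 was the only other MERVL-int entry with a negative r (-0.23), and had 0.450 to 2.76 FPKM. It was chosen for that value after the data were seen.

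Of the next highest entries, number 72 followed the family and number 76 did so only in part. The second row that carries number 72 had 2.41, 4.63 and 6.03 FPKM at day 0 in WT, 1KO and 1KO+1CI, 2.58, 1.57 and 2.09 at day 2, and 4.08, 7.24 and 6.86 at day 4. Number 76 had 3.30, 3.84 and 6.08 FPKM at day 0, 2.67, 3.17 and 3.18 at day 2, and 2.98, 5.17 and 5.29 at day 4. In number 76, WT was the lowest line at day 2 as well, and its level at day 4 was below that at day 0.

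The entries with the widest differences between 1KO and WT were chosen by rule, with a minimum of 1 FPKM in a library of the pair. At day 0 the MERVL-int entry furthest above WT was number 8, which had 1.24 FPKM in WT and 4.03 in 1KO, a ratio of 3.25 (exact interval 2.34 to 4.60). The entry furthest below WT was number 179, with 1.19 FPKM in WT and 0.583 in 1KO and an interval of 0.174 to 1.30 that holds 1. At day 2 number 74 had 2.54 FPKM in WT and 0.478 in 1KO, a ratio of 0.188 (interval 0.0714 to 0.422). Number 105 was furthest above WT at that day, at 0.827 and 1.49 FPKM (interval 0.960 to 3.45). At day 4 number 17 had 2.17 FPKM in WT and 5.82 in 1KO, a ratio of 2.68 (interval 2.14 to 3.38).

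The extremes between 1KO+1CI and 1KO were chosen in the same way. Number 74 was again at the edge, with levels of 2.00 and 4.83 FPKM in 1KO and 1KO+1CI at day 0, a ratio of 2.41 (interval 1.62 to 3.63). At day 4 number 137 had levels of 1.53 and 0.520 FPKM in the same order, a ratio of 0.339 (interval 0.212 to 0.526). The other extremes were number 59 and number 66 at day 2, with ratios of 2.96 (1.50 to 6.25) and 0.607 (0.378 to 0.961). Number 6 at day 4 had a ratio of 1.41 (1.10 to 1.82), and number 87 at day 0 had 0.522 (0.241 to 1.07).

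The highest MT2_Mm entry was steadier than the family. Number 149 had 5.44, 8.55 and 7.70 FPKM at day 0 in WT, 1KO and 1KO+1CI, 8.09, 5.31 and 7.44 at day 2, and 5.88, 7.79 and 7.71 at day 4. Number 61 had 4.67, 4.85 and 6.05 FPKM at day 0, 4.63, 4.76 and 1.96 at day 2, and 3.19, 5.62 and 6.28 at day 4. Number 82, the third, followed the family, with 1.95, 3.99 and 5.75 FPKM at day 0, 1.39, 1.30 and 1.19 at day 2, and 2.22, 5.30 and 3.84 at day 4.

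Single MT2_Mm entries held few reads. The entry furthest above WT in 1KO at day 0, number 5, went from 0.107 FPKM, which was 1 read, to 2.12 FPKM, which were 27, and its exact interval of the ratio was 3.27 to 812. The entry furthest below WT, number 57, went from 2.04 to 0.600 FPKM, a ratio of 0.294 (interval 0.112 to 0.697). At day 2 number 32 had a ratio of 3.76 (1.16 to 15.8) and number 18 of 0.241 (0.0718 to 0.644). At day 4 number 56 had 4.61 (2.02 to 12.3) and number 121 had 0.277 (0.0489 to 1.07).

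For 1KO+1CI over 1KO, MT2_Mm number 45 had a ratio of 2.41 (1.36 to 4.42) and number 87 of 0.392 (0.220 to 0.668) at day 0. At day 2 number 13 had 5.26 (1.51 to 28.2) and number 61 had 0.411 (0.231 to 0.706). At day 4 number 34 had 2.09 (1.08 to 4.20) and number 49 had 0.312 (0.150 to 0.602). As extremes of many entries, these values are a description of the spread.

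Other repeat families showed which of them shared the pattern. Over the 9 libraries, Pearson's r of the log2(mean FPKM + 1) with that of MERVL-int was 0.995 for MT2_Mm, the highest of 370 other families with at least 10 entries. The next were ID4_ with r = 0.768, (CAGG)n with 0.741, (TTTTTG)n with 0.727 and RLTR6B_Mm with 0.677. None of these 4 had the same amplitude. RLTR6B_Mm, for example, ran only from 0.719 to 1.02 FPKM.

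The older relatives of MT2_Mm and MERVL-int differed from them. MERVL_2A-int had 2.25, 2.17 and 2.64 FPKM at day 0, 2.97, 2.85 and 2.56 at day 2, and 2.06, 2.28 and 2.21 at day 4 in WT, 1KO and 1KO+1CI, with r = -0.517. MT2A, MT2B, MT2B1, MT2B2 and MT2C_Mm had r between -0.670 and -0.310. Their ratios of 1KO to WT lay between 0.838 and 0.974 at day 0, where that of MT2_Mm was 1.67. MTA_Mm, the LTR of a class known for its transcription in oocytes, had r = -0.725 and a ratio of 1.01 at day 0.

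IAPEz-int followed another course. It had 0.727, 7.14 and 2.26 FPKM at day 0 in WT, 1KO and 1KO+1CI, 0.792, 4.70 and 4.62 at day 2, and 0.563, 17.1 and 23.4 at day 4. Its ratio of 1KO to WT was 9.82, 5.94 and 30.3 at the 3 days, while that of MERVL-int was 1.77, 0.704 and 1.81. IAPEz-int was thus higher in 1KO than in WT at day 2 as well, when MERVL-int was lower. The line effect of IAPEz-int in the linear model was 2.48 ± 0.56 (SE) and did not pass over all families either (limma, adjusted p = 0.227). L1Md_T, a young class of LINE-1, was highest at day 2 in each line, with r = -0.710.

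Among 13288 genes with at least 1 FPKM in some library, the 5 whose log2(FPKM + 1) was most like that of MERVL-int were Tmed10 (r = 0.949), Fbxo4 (0.942), Rabl3 (0.941), Sirpa (0.939) and Rftn1 (0.937). Rftn1 had 1.40, 1.89 and 2.82 FPKM at day 0 in WT, 1KO and 1KO+1CI, 1.03, 0.936 and 0.673 at day 2, and 2.69, 3.06 and 2.67 at day 4. With 9 libraries and many genes, values of this size are a ranking and no more. Dnmt1 itself had r = 0.032.

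Genes known for their transcription in 2-cell embryos were low and shared the low point at day 2. Of 26 in the list, 18 were in the gene table, and they summed to 25.8, 28.1 and 44.2 FPKM at day 0, 16.4, 11.1 and 17.0 at day 2, and 24.7, 29.8 and 30.1 at day 4. Ddit4l alone, at 9.09, 7.97 and 12.1 FPKM at day 2, held much of these sums and went the other way. Without it, a choice made after the data were seen, the sums were 22.1, 23.9 and 36.0 FPKM at day 0, 7.29, 3.09 and 4.88 at day 2, and 17.2, 24.1 and 20.2 at day 4, with WT and not 1KO+1CI the highest at day 2. In the linear model over all 15074 genes, 11 of the 18 fell from day 0 to day 2 and 1, Ddit4l, rose (limma, adjusted p under 0.05), against 8.11% and 7.34% of all genes. From day 2 to day 4, 12 of the 18 rose and 0 fell, against 11.2% and 11.7% of all genes. For 1KO over WT 1 of the 18, Tdpoz4, was called higher (limma, adjusted p = 0.0494), against 0.71% of all genes. Tdpoz4 was low, between 0.085 and 0.833 FPKM in the libraries, and its adjusted p lay just under the threshold. Of the 18, 0 passed for 1KO+1CI over 1KO (limma), against 0.00663% of all genes higher and 0% lower. At an unadjusted p under 0.05, 2 of the 18 were higher with inactive DNMT1 than without and 1 was lower, against 2.02% and 1.72% of all genes.

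Zscan4d, a member of a gene cluster known for its bursts in 2-cell-like cells, had 2.72, 4.14 and 6.13 FPKM at day 0 in WT, 1KO and 1KO+1CI. It had 1.05, 0.191 and 0.307 FPKM at day 2 and 2.53, 3.15 and 2.81 at day 4. As in MERVL-int, WT was the lowest line at days 0 and 4 and the highest at day 2. It fell from day 0 to day 2 by 1.80 ± 0.28 (SE) on the log2(FPKM + 1) scale (limma, adjusted p = 0.00737) and rose by 1.38 ± 0.28 to day 4 (adjusted p = 0.0134). Its r with MERVL-int was 0.811. Zscan4c had 1.83, 2.41 and 2.72 FPKM at day 0, 0.776, 0.188 and 0.372 at day 2, and 1.82, 2.12 and 1.20 at day 4. Zscan4a was lower in 1KO than in WT at each day, with 2.74, 2.49 and 3.24 FPKM at day 0. It had 1.16, 0.211 and 0.375 FPKM at day 2 and 2.46, 1.31 and 1.49 at day 4. Zscan4b was highest in WT at day 0, with 0.993, 0.672 and 0.835 FPKM. The order of the lines in Zscan4d was thus not shared by all listed Zscan4 genes.

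The Usp17l genes of the list encode deubiquitinases. The r with MERVL-int is given here for some genes of the list only, so the list is not ranked by it. Usp17lc had r = 0.906, Usp17la r = 0.900 and Usp17le r = 0.839. Lower values were found for Tcstv3 (0.756), Zscan4c (0.747), Gm8300 (0.702), Gm2022 (0.682) and Zscan4a (0.547). Usp17le had 1.54, 2.59 and 3.83 FPKM at day 0, 0.283, 0.505 and 0.749 at day 2, and 0.731, 2.81 and 2.65 at day 4. It thus lay lower in WT than in the other lines at every day, day 2 included, where MERVL-int was highest in WT. Genes of the Zscan4 and Usp17l clusters have near-identical copies, so reads may be split between them and single values are uncertain.

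Dux, the transcription factor that switches on MERVL in the embryo, was between 0.0230 and 0.227 FPKM in the 9 libraries, and its near-identical copies make this value uncertain. Gm5662, a further 2-cell gene, had 4.17, 2.81 and 6.01 FPKM at day 0, 0.847, 0.155 and 0.562 at day 2, and 1.83, 1.25 and 0.618 at day 4. It was lower in 1KO than in WT at each day, unlike MERVL-int.

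**Figure D5:**
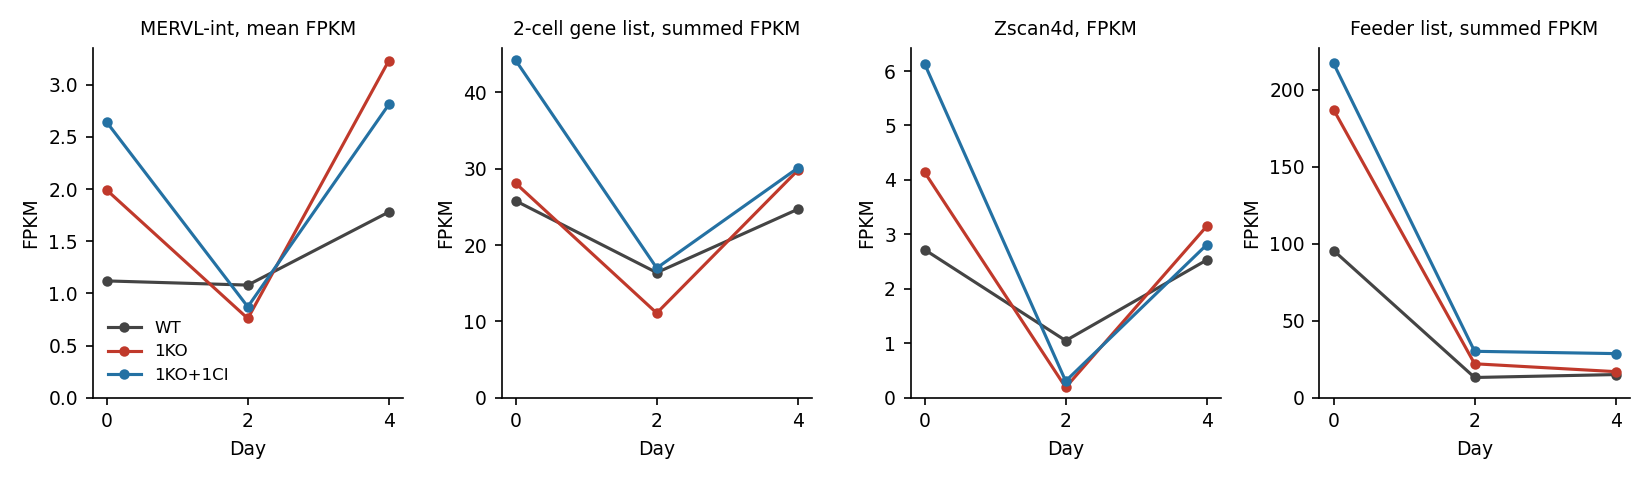
Mean FPKM of MERVL-int, summed FPKM of the 18 listed 2-cell genes, FPKM of Zscan4d and summed FPKM of the 9 listed feeder markers (y axes) by day (x axes) in WT, 1KO and 1KO+1CI, each point being 1 library. The first 3 panels have low points at day 2, while the feeder sum is high only at day 0 (95.6, 187 and 217 FPKM).

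The sum of the feeder markers moved with the line at day 0 in the same order as MERVL-int. In the linear model 0 of 9 passed for 1KO over WT (limma), against 0.71% of all genes higher and 1.15% lower. The count was also 0 of 9 for 1KO+1CI over 1KO, against 0.00663% higher and 0% lower. At an unadjusted p under 0.05, 5 were higher in 1KO than in WT, against 7.26% of all genes. By that measure 3 were higher in 1KO+1CI than in 1KO, against 2.02%. Col1a1, a fibroblast collagen, had 39.0, 76.0 and 74.4 FPKM at day 0 in WT, 1KO and 1KO+1CI, and Col3a1 had 13.1, 28.4 and 38.0. All 9 listed markers fell from day 0 to day 2 (limma, adjusted p under 0.05), against 8.11% of all genes, and 1 fell further to day 4, against 11.7%. At day 4 the sum of the markers was 15.1, 17.0 and 28.7 FPKM, with 7 of 9 higher in 1KO than in WT, and was thus 1.12-fold higher in 1KO, while MERVL-int was 1.81-fold higher. The part of the feeders in the differences at day 0 and between days 0 and 2 was not tested.

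The 28 factors listed as holding down MERVL or other retroviral sequences were all in the gene table. For 1KO over WT, 0 of 28 passed in the linear model (limma), against 0.71% of all genes higher and 1.15% lower. The count was also 0 of 28 for 1KO+1CI over 1KO, where hardly any gene passed (0.00663% higher and 0% lower). At an unadjusted p under 0.05, 3 were higher and 1 was lower in 1KO than in WT, against 7.26% and 7.77% of all genes. For 1KO+1CI over 1KO the counts were 1 and 2, against 2.02% and 1.72%. From day 0 to day 2, 5 rose and 1 fell, against 7.34% and 8.11% of all genes, and from day 2 to day 4, 5 rose and 11 fell, against 11.2% and 11.7%. Trim28, the scaffold that brings histone methyltransferases to retroviral sequences, had 453, 679 and 588 FPKM at day 0, 512, 548 and 511 at day 2, and 414, 384 and 428 at day 4. Zfp809, a zinc finger protein that binds primer sites of certain retroviruses, rose by 0.88 ± 0.15 (SE) from day 0 to day 2 (limma, adjusted p = 0.0103). It fell by 1.15 ± 0.15 to day 4 (adjusted p = 0.00354). Whether it acts on MERVL was not tested.

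L3mbtl2, a subunit of a Polycomb complex, fell by 1.06 ± 0.16 (SE) from day 2 to day 4 (limma, adjusted p = 0.00576). The histone methyltransferase gene Ehmt2 rose by 0.44 ± 0.09 to day 2 (adjusted p = 0.0216) and fell by 0.46 ± 0.09 to day 4 (adjusted p = 0.0138). Cbx3, a heterochromatin protein, went the other way and fell by 0.44 ± 0.10 to day 2 (adjusted p = 0.0265), then rose by 0.40 ± 0.10 (adjusted p = 0.0285). Kdm1a, a histone demethylase, ran from 66.1 to 97.8 FPKM, and Chaf1a, a chromatin assembly factor, from 32.9 to 40.5. Sumo2, the gene of a small modifier protein, had 149, 204 and 18.2 FPKM at day 0, 20.5, 101 and 80.8 at day 2, and 29.5, 161 and 161 at day 4. It was higher in 1KO than in WT at each day, but the line effect of 1.7 ± 0.87 (SE) did not pass (limma, adjusted p = 0.419). Its level thus varied from 18.2 to 204 FPKM, and from day 0 to day 2 it rose in 1KO+1CI only.

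Of the 9 factors known to favour the 2-cell state, 1, Dppa3, was higher in 1KO than in WT in the linear model, by 1.08 ± 0.12 (SE) (limma, adjusted p = 0.0121), against 0.71% of all genes. It had 35.7, 89.7 and 90.3 FPKM at day 0, 9.68, 20.8 and 20.8 at day 2, and 2.57, 5.75 and 5.29 at day 4. Its level was thus lower at each later day, while that of MERVL-int was highest at day 4 in WT, 1KO and 1KO+1CI. From day 0 to day 2, 1 of the 9 rose and 2 fell, against 7.34% and 8.11% of all genes, and from day 2 to day 4, 1 rose and 5 fell, against 11.2% and 11.7%. Dppa2, an activator of Dux, had 40.4, 78.0 and 71.1 FPKM at day 0, 76.3, 64.0 and 62.3 at day 2, and 44.8, 17.1 and 19.8 at day 4. At day 4 it was therefore highest in WT, the line with the lowest MERVL-int. Its partner Dppa4 had 71.6, 31.3 and 28.9 FPKM at that day. For 1KO+1CI over 1KO 0 of the 9 passed (limma), against 0.00663% of all genes higher and 0% lower. The count was 0 at an unadjusted p under 0.05 as well, where 2.02% of all genes were higher and 1.72% lower.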

How the data were processed

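Per the labels and the methods, poly(A) RNA was sequenced in 9 libraries, 1 per line and day. The authors trimmed reads with Trim Galore, aligned them to mm10 with HISAT2, handled them with SAMtools and deposited FPKM per gene and per repeat entry, both counted with HOMER. For versions, annotation release, strand setting and the treatment of reads with several positions, nothing was given in the sources used here.

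From the deposited FPKM values, the step between them was recovered per entry, giving whole reads, relative depth and, with a fitted scale, implied lengths (entries above 0.2 FPKM in every library had a step in 94.9% of 32203 cases). Of the gene rows, 21 with no gene name or a date in its place were left out, leaving 15074. Family means were compared as ratios, with exact (Clopper-Pearson) 95% intervals of summed reads, which cover counting error only. Each condition has 1 library, so there is no replicate error and no test of a single ratio. The test was limma 3.58.1 in R 4.3.3 on log2(FPKM + 1), with line and day as additive terms, a trend in the prior variance and an adjusted p of 0.05. The same fit was made for entries, family means and genes. Other numbers came from Python 3.11.15. The scripts were tested on simulated data.

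The members and lists were chosen with earlier results of these data known. The lists were 2-cell genes, factors that hold MERVL or other retroviral sequences down, factors that favour the 2-cell state, ESC markers and feeder markers. Named entries were, in each family, the 3 with the highest mean and, for each line comparison at each day, the most raised and most lowered at 1 FPKM or more in a library of the pair. Named families and genes were the 5 most alike by Pearson's r, and comparison families. Effects of day in limma, scaling by the repeat table and summed reads were added after seeing the data. Alternatives were pseudocounts of 0.1 and 0.01 (1 on family means), a minimum of 1 FPKM in some library, medians over entries, scaling by the gene table and leaving out each library. Entries are read as pools of copies of the same number, so no genome position is given.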

Additional observations from a re-analysis of the deposited data

Results flagged for a closer look

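Line differences of opposite sign at different days stood out in both families. For 1KO over WT the log2 ratio of mean FPKM was -0.51 for MERVL-int and -0.54 for MT2_Mm at day 2, while it was 0.82 and 0.74 at day 0 and 0.86 and 0.72 at day 4. For 1KO+1CI over 1KO it was -0.20 for MERVL-int and -0.22 for MT2_Mm at day 4, while it was 0.41 and 0.23 at day 0 and 0.20 and 0.23 at day 2. Counting intervals of the summed reads did not reach a ratio of 1 in any of these 12 comparisons. With 1 library per condition, the difference between days was not tested. No group had the 4 samples needed to look for a sample that stands apart.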

How the results depend on the processing

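Each condition has 1 library, so the spread between cultures is unknown. Summed reads of a family are the best measured values, and single MT2_Mm entries, with few reads, the least. Of 340 values recomputed under alternatives, 242 kept direction and side of the threshold or stayed within the counting interval. No alternative turned a ratio of family means between lines, while the limma effect of 1KO+1CI over 1KO turned on leaving out certain libraries. No pairing of replicates was possible because each line has 1 library per day, although the day term in limma compares lines within days.

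With the pseudocount of 1 on family means, log2 ratios of 1KO over WT at days 0, 2 and 4 were 0.49, -0.24 and 0.60 for MERVL-int and 0.39, -0.23 and 0.44 for MT2_Mm, and those of 1KO+1CI over 1KO were 0.29, 0.09 and -0.15 and 0.14, 0.09 and -0.14. With the median over entries, 1KO over WT was 0.96 and 0.81 for MERVL-int at days 0 and 4 and 0.87, -0.79 and 0.82 for MT2_Mm at days 0, 2 and 4, and 1KO+1CI over 1KO at day 4 was -0.16 for MERVL-int. Scaling by the gene table gave 0.45 for 1KO+1CI over 1KO at day 0, -1.65 for 1KO+1CI from day 0 to day 2, both in MERVL-int, and 4 MERVL-int entries raised from day 2 to day 4 in place of 7.

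Scaling by the repeat table, added after seeing the data, gave 1KO over WT log2 ratios of 0.98 and 0.79 for MERVL-int at days 0 and 4 and 0.90 for MT2_Mm at day 0, and 1KO+1CI over 1KO ratios of 0.26 and -0.15 for MERVL-int at days 0 and 4 and 0.08 for MT2_Mm at day 0. From day 0 to day 2 it gave -0.27, -1.76 and -1.83 for MERVL-int in WT, 1KO and 1KO+1CI, and -0.18, -1.61 and -1.47 for MT2_Mm, of which the WT value of MT2_Mm turned from 0.04. From day 2 to day 4 it gave 1.07, 2.37 and 2.02, and 0.78, 1.97 and 1.57. Summed reads gave -1.45 and 2.18 in 1KO and -1.65 and 1.76 in 1KO+1CI for the same steps in MERVL-int. The smaller weight of short entries in summed reads is part of their construction.

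A smaller pseudocount raised the counts of entries past 2-fold, as its construction implies for low values. With 0.1, MERVL-int had 52, 27 and 50 such entries for 1KO over WT at days 0, 2 and 4 and 6, 14 and 3 for 1KO+1CI over 1KO, and MT2_Mm had 50, 55 and 51, and 18, 48 and 19. With 0.01 these were 62, 38 and 60, 8, 19 and 4, 66, 66 and 54, and 24, 61 and 21. All these counts add entries that were higher and entries that were lower. The share over all entries is not given here for 1KO+1CI over 1KO at 0.1 or for any count at 0.01. No difference between lines is read from those counts. With a minimum of 1 FPKM in some library, 5 MT2_Mm entries rose from day 2 to day 4 in place of 8.

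Leaving out each library in turn gave 0 to 1 MERVL-int and 0 to 4 MT2_Mm entries raised from day 2 to day 4, and 0 called for the other effects. The family effect in limma from day 2 to day 4 was 0.77 to 1.16 for MERVL-int and 0.46 to 0.78 for MT2_Mm, that from day 0 to day 2 -0.84 to -0.43 and -0.61 to -0.29, and that of 1KO over WT 0.13 to 0.54 and 0.08 to 0.40. That of 1KO+1CI over 1KO was -0.08 to 0.21 for MERVL-int and -0.09 to 0.13 for MT2_Mm. It turned without the 1KO+1CI library of day 0, to -0.08 and -0.07, and without the 1KO library of day 2, to -0.06 and -0.09, with fewer samples and adjusted p values of 0.977 to 1.0. The cause of the other moves was not tested.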
